A study of Rattus norvegicus with 3 samples.

Results

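The 10 genes Apoe, Trem2, Lpl, Cd36, Msr1, Abca1, Abcg1, Plin2, Soat1 and Pla2g7 take up, store or export lipid, and they were read in nuclei of injured rat spinal cord. They were found by symbol among the 17328 genes of each deposited matrix, and all 10 carried transcripts in every library. The tissue was the lesion epicenter of wild-type rats (strain SDrat, 17 weeks of age), taken 49 days after spinal cord injury. One library came from cord with an implanted scaffold that releases hepatocyte growth factor (HGF), 1 from cord with an implanted scaffold whose label names no HGF, and 1 from cord that was injured and given no treatment, so no library is uninjured. Both implants had been in place for 7 days. Each group was therefore 1 library. How many animals it came from is not stated in the labels, and no difference has a replicate check or a p-value. Intervals in brackets are exact 95% intervals that cover counting error only.

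After injury of the cord, broken myelin is cleared by microglia and by macrophages that enter from the blood, and both take in large amounts of cholesterol and fatty acids. Msr1 and Cd36 are scavenger receptors for modified lipoproteins, Cd36 also carries long-chain fatty acids, and Trem2 is a myeloid receptor for lipids and lipoproteins. Lpl splits triglyceride in lipoproteins. Soat1 esterifies cholesterol, and Plin2 coats the lipid droplets in which the esters are kept. Abca1 and Abcg1 move cholesterol out of the cell, Apoe is the main apolipoprotein of the nervous system that carries it, and Pla2g7 is a secreted hydrolase of platelet-activating factor and oxidized phospholipids.

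The HGF scaffold library held 906 nuclei and 1450757 unique molecular identifiers (UMIs, 1 per captured transcript), the scaffold library 2168 with 5791715 UMIs and the untreated library 2252 with 5953189 UMIs. Of these, 5306 of 5326 nuclei were kept. Levels are summed UMIs scaled to counts per 1000000 UMIs of the same nuclei (CPM). Neuron-, oligodendrocyte-, astrocyte-, endothelial- and meningeal-like nuclei with their defining markers were present in each library. Clusters were built without the 10 genes and without the other lipid genes listed, and were called "like" a cell type from its markers. Only 4 barcodes occurred in more than 1 library. Macrophage-like nuclei (led by Arg1, Acpp and C3ar1) numbered 287, 355 and 17 in the HGF scaffold, scaffold and untreated libraries, and microglia-like nuclei (Alpk3, Slc2a5 and Slco2b1, with Cx3cr1 and Sall1) 37, 102 and 209. A cluster led by Mmp9, Mmp3 and Mmp13 stayed unnamed, because its leading genes held 4 myeloid markers (Lyz2, Cd68, Aif1 and Cd14) and 4 fibroblast markers (Lum, Postn, Col1a1 and Col1a2), and held 76, 77 and 28 nuclei. Values within a class are given where at least 30 nuclei were present, so macrophage-like nuclei are not read in the untreated library.

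Over all nuclei, the uptake genes Msr1, Cd36 and Trem2 stood highest in the HGF scaffold library, next in the scaffold library and lowest in untreated cord. Msr1 stood at 450.3 (416 to 487) CPM in the HGF scaffold library, 304 (289.7 to 318) CPM in the scaffold library and 22.9 (19.2 to 27.0) CPM in the untreated library. That was 19.7-fold (16.3 to 23.9) higher in HGF scaffold than untreated cord and 13.3-fold (11.1 to 15.9) higher in scaffold than untreated cord. Cd36 stood at 94.2 (78.8 to 112) CPM, 27.8 (23.7 to 32.5) CPM and 9.42 (7.11 to 12.2) CPM in the HGF scaffold, scaffold and untreated libraries. No pair of these Cd36 intervals overlapped. Trem2 stood at 79.8 (65.7 to 96.2) CPM, 54.1 (48.2 to 60.4) CPM and 19.8 (16.4 to 23.8) CPM in the same order, and Lpl at 28.1 (19.9 to 38.4) CPM, 26.8 (22.7 to 31.3) CPM and 6.22 (4.38 to 8.57) CPM. The implant libraries overlapped for Lpl, and both lay above untreated cord.

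The storage gene Plin2 stood at 188 (166 to 212) CPM in the HGF scaffold library, 135 (125 to 145) CPM in the scaffold library and 32.3 (27.9 to 37.2) CPM in the untreated library, and Soat1 at 165 (144 to 188) CPM, 143 (133 to 153) CPM and 55.3 (49.5 to 61.6) CPM. The phospholipid hydrolase gene Pla2g7 stood at 564 (525 to 605) CPM, 517 (498 to 536) CPM and 66.6 (60.2 to 73.5) CPM. The lipid carrier Apoe stood at 2890.3 (2802 to 2981) CPM, 2098 (2061 to 2136) CPM and 931 (907 to 956) CPM. The exporters were closer together. Abca1 stood at 957 (907 to 1010.3) CPM, 902 (878 to 927) CPM and 538 (519 to 557) CPM, and Abcg1 at 94.2 (78.8 to 112) CPM, 102 (94.0 to 111) CPM and 66.1 (59.7 to 72.9) CPM. Their implant libraries overlapped and both lay above untreated cord.

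A gene is counted as higher or lower where its CPM ratio reached 2-fold and the libraries compared held at least 20 of its UMIs together. HGF scaffold over untreated, 8 of the 10 genes were at least 2-fold higher, all but Abca1 (1.78-fold) and Abcg1 (1.43-fold), against 9.3% of all genes measured, and 0 were lower, against 11.7%. Scaffold over untreated, the same 8 were at least 2-fold higher, with Abca1 at 1.68-fold and Abcg1 at 1.55-fold, against 7.12% of all genes, and 0 were lower, against 3.98%. These comparisons share the untreated library. HGF scaffold over scaffold, 1 of 10 was at least 2-fold higher, against 2.38% of all genes, and 0 were lower, against 5.47%. The gene was Cd36, at 3.39-fold (2.67 to 4.29). Its ratio rested on 131 UMIs in the HGF scaffold library and 161 in the scaffold library. The median log2 ratio of the 10 genes was 2.09 for HGF scaffold over untreated, 1.5 for scaffold over untreated and 0.34 for HGF scaffold over scaffold, beside 0.07, 0.04 and 0.02 for all genes measured.

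**Figure D1:**
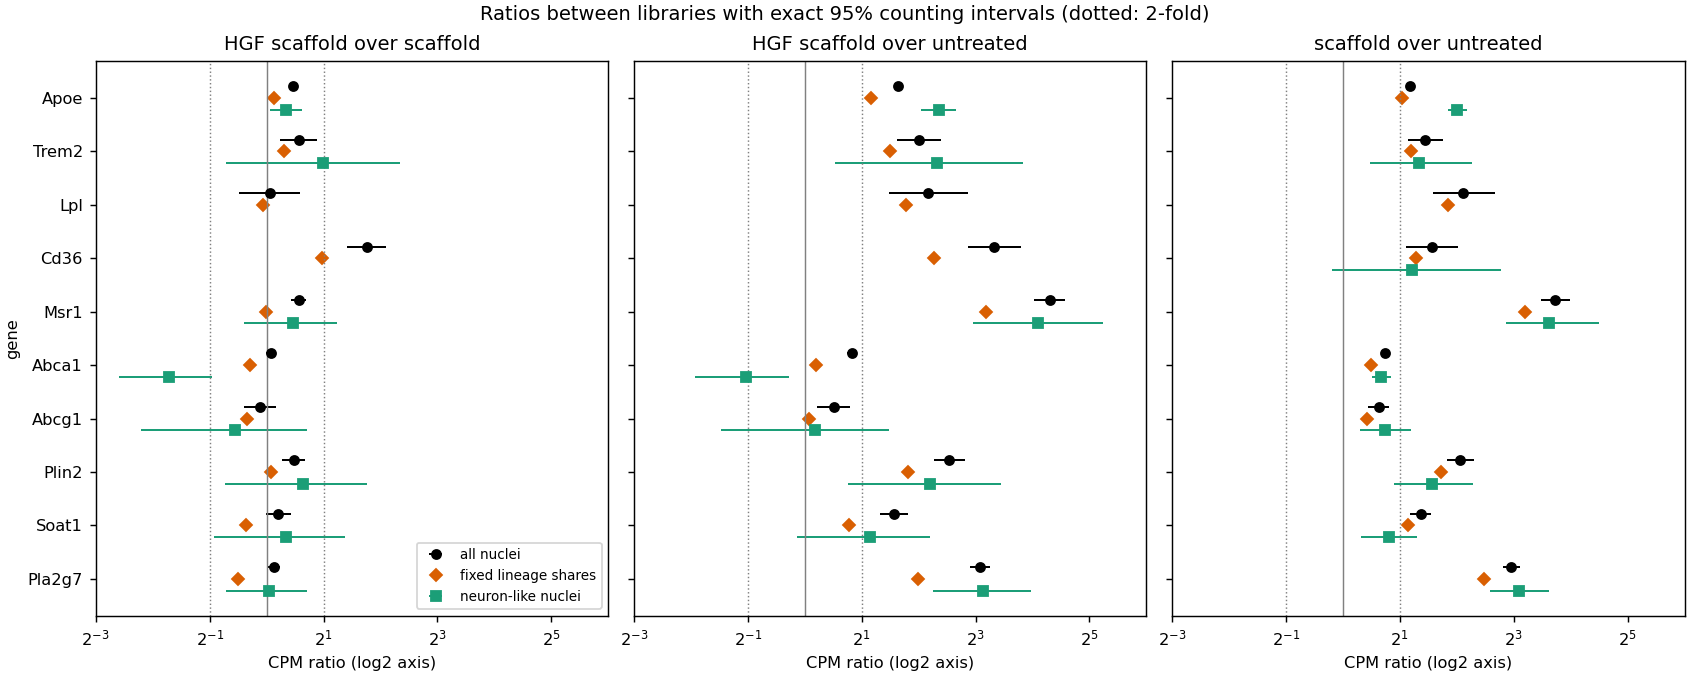
Ratio of CPM between libraries for each of the 10 genes on a log2 axis, for HGF scaffold over scaffold, HGF scaffold over untreated and scaffold over untreated. Black points are all nuclei and green squares neuron-like nuclei, with exact 95% counting intervals (not drawn under 20 UMIs). Orange diamonds are the 17 clusters or classes with UMIs in every library, at the lineage shares of the untreated library. In the first panel Cd36 is the one gene whose black point lies past the dotted 2-fold line, and in the second Msr1 lies farthest right, at 19.7-fold.

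The sums over all nuclei followed the make-up of the libraries as well as levels within nuclei. Macrophage-like nuclei held 26.4% of the UMIs of the HGF scaffold library, 14.1% of the scaffold library and 0.278% of the untreated library. They held 51.8% of the Msr1 UMIs in the HGF scaffold library and 33.6% in the scaffold library, and 52.0% and 23.8% of the Soat1 UMIs. For Cd36 they held 42.0% and 27.3%, and for Abca1 45.4% and 23.4%. In each of these the macrophage-like share of the gene was above the macrophage-like share of all UMIs. Apoe differed, with 25.2% and 14.7% of its UMIs there, close to the share of all UMIs, and with 35.0% and 12.5% in the Mmp9 cluster, which held 7.51% and 1.89% of all UMIs.

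**Figure D2:**
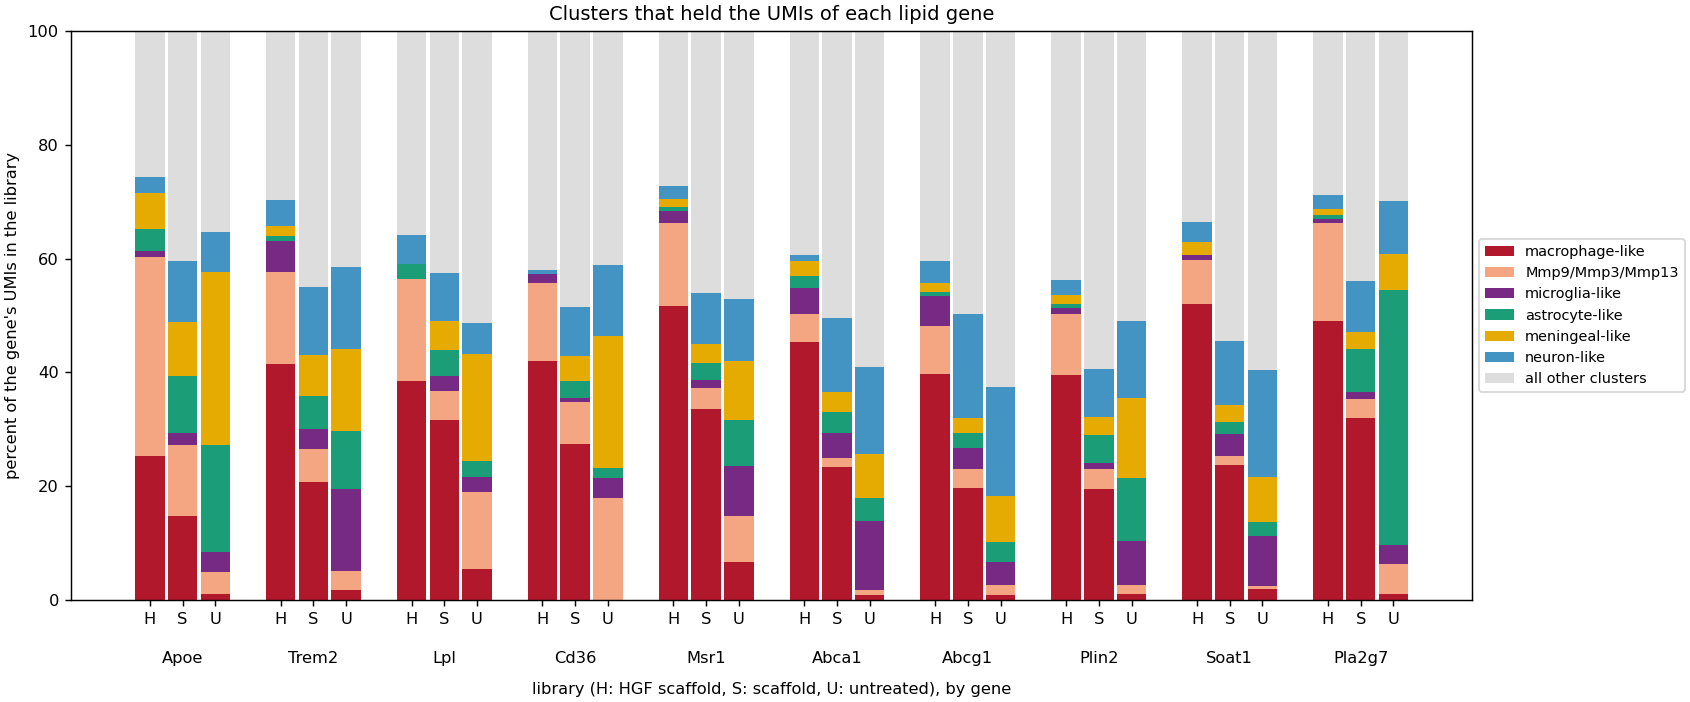
Stacked bars of the percent of each gene's UMIs that lay in macrophage-like, Mmp9/Mmp3/Mmp13, microglia-like, astrocyte-like, meningeal-like and neuron-like nuclei and in all other clusters, for the HGF scaffold (H), scaffold (S) and untreated (U) libraries. The macrophage-like part is largest in the HGF scaffold bars, and in untreated cord 44.9% of the Pla2g7 UMIs lay in astrocyte-like nuclei.

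Ratios at fixed lineage shares used the 17 clusters or classes with UMIs in every library, and no interval was computed. Some of these held under 30 nuclei, such as astrocyte-like nuclei with 24 in the HGF scaffold library. With lineage levels weighted by the lineage shares of untreated cord, the ratio of HGF scaffold over untreated was 9.05 for Msr1, 4.82 for Cd36, 3.96 for Pla2g7, 3.50 for Plin2, 2.84 for Trem2 and 2.23 for Apoe. All 6 were smaller than over all nuclei and, at these weights, above 2. Soat1 came to 1.72. For HGF scaffold over scaffold, Cd36 came to 1.97, or 2.36 with the shares of the scaffold library as weights, and Msr1 to 0.991. With the shares of the scaffold library as weights, HGF scaffold over untreated was 3.05 for Msr1, 1.78 for Trem2, 1.74 for Apoe and 1.07 for Lpl, against 3.44 for Lpl at the untreated shares. Those weights give the 17 untreated macrophage-like nuclei a large part.

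Neuron-like nuclei, a type in which the macrophage receptor Msr1 is not typical, held differences in the same direction for Msr1, Pla2g7 and Apoe. Msr1 stood there at 188 (105 to 309) CPM in the HGF scaffold library, 136 (115 to 159) CPM in the scaffold library and 11 (6.14 to 18.1) CPM in untreated cord. Its ratio in neuron-like nuclei was 17.1-fold (7.78 to 37.5) for HGF scaffold over untreated and 12.4-fold (7.27 to 22.6) for scaffold over untreated, which overlaps the ratios over all nuclei. For Pla2g7 the neuron-like ratios were 8.77-fold (4.77 to 15.7) and 8.51-fold (6.02 to 12.3), and for Apoe 5.11-fold (4.11 to 6.32) and 4.02-fold (3.58 to 4.51). The 26 myeloid markers summed to 2426 CPM in neuron-like nuclei of the HGF scaffold library, 3300.1 CPM in those of the scaffold library and 1340.2 CPM in those of untreated cord, with 6, 2 and 1 of the 26 at 0. In macrophage-like nuclei they summed to 12672 and 11954 CPM in the HGF scaffold and scaffold libraries. Neutrophil markers summed to 1150.5, 144 and 19.0 CPM in the neuron-like nuclei of the HGF scaffold, scaffold and untreated libraries. Abca1 in neuron-like nuclei was at 0.487-fold (0.264 to 0.825) for HGF scaffold over untreated, 1.60-fold (1.42 to 1.80) for scaffold over untreated and 0.304-fold (0.165 to 0.514) for HGF scaffold over scaffold with 14 UMIs in the HGF scaffold library. The part of free RNA, or of nuclei captured together, in the ratios within other classes was not tested.

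**Figure D3:**
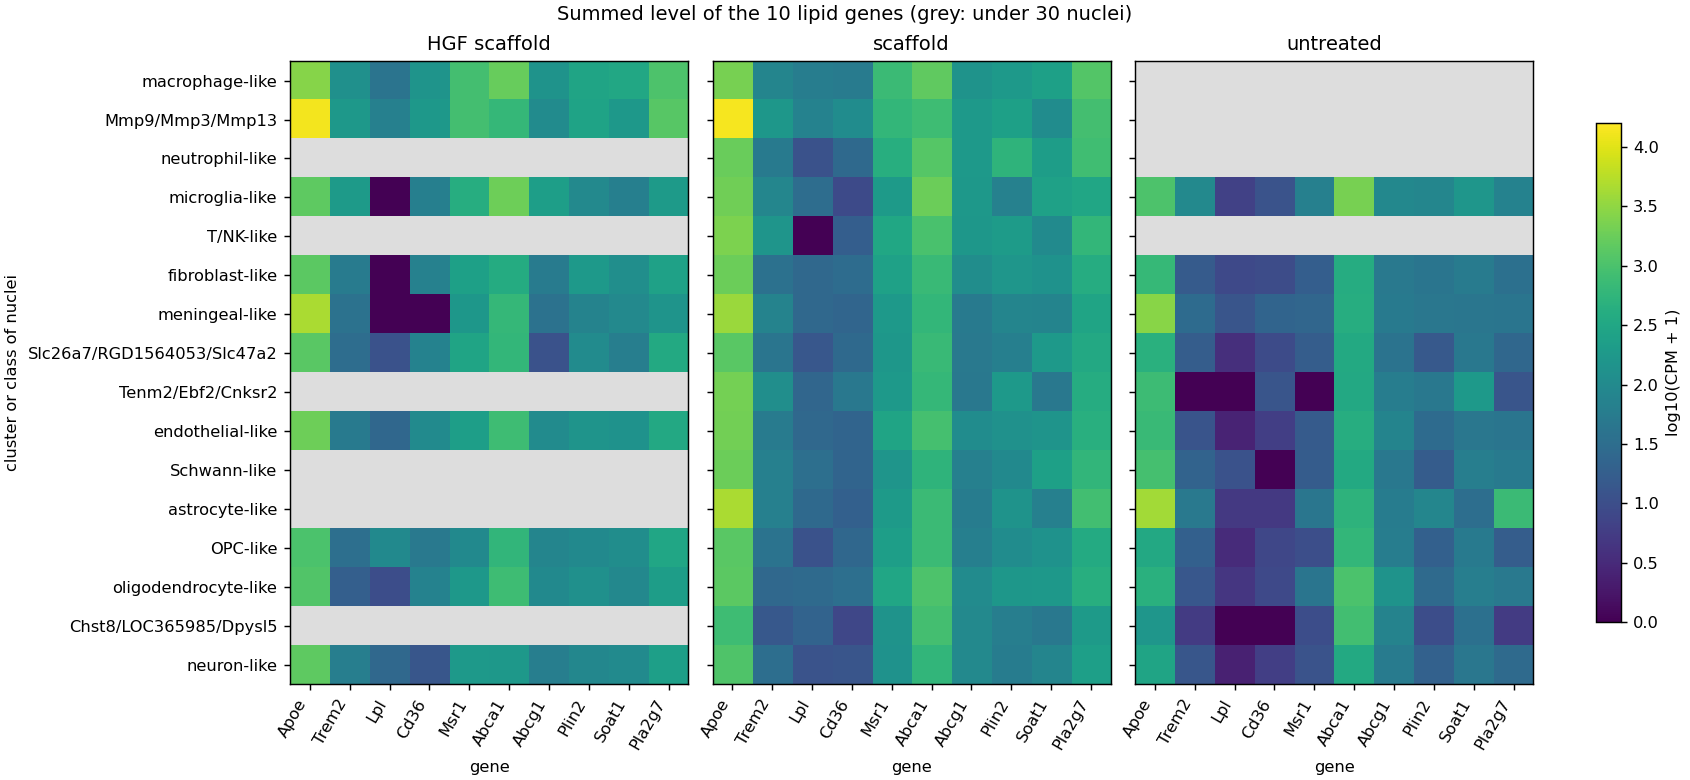
Heat maps of log10(CPM + 1) of the 10 genes (columns) in each cluster or class (rows) for the HGF scaffold, scaffold and untreated libraries, with fields of under 30 nuclei in grey. Apoe is brightest in the Mmp9/Mmp3/Mmp13 cluster of both implant libraries, at 13489 CPM in the HGF scaffold library and 13877 CPM in the scaffold library, and Abca1 is bright in the microglia-like row of all 3 libraries.

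In both implant libraries Msr1 and Cd36 lay above the neuron-like level in macrophage-like nuclei and in the Mmp9 cluster. Neuron-like nuclei are a low reference. In the scaffold library they ranked 16 of 16 classes for Msr1 and for Plin2, and in the HGF scaffold library 7 of 10 for Msr1. Msr1 in the scaffold library stood at 303 (257 to 354) CPM in oligodendrocyte-like and 283 (250 to 320) CPM in endothelial-like nuclei. Msr1 in macrophage-like nuclei stood at 882 (789 to 984) CPM in the HGF scaffold library and 724 (667 to 785) CPM in the scaffold library, 4.70 times (2.81 to 8.50) and 5.33 times (4.47 to 6.39) the neuron-like level of the same library. In the Mmp9 cluster it stood at 872 and 602 CPM, and the intervals of the macrophage-like and Mmp9 levels overlapped in both libraries. Cd36 was 12 times (2.06 to 482) the neuron-like level in macrophage-like nuclei of the HGF scaffold library, where neuron-like nuclei had 1 Cd36 UMI, and 4.52 times (2.43 to 8.92) in the scaffold library. Trem2 was 2.0 times (0.799 to 6.46) and 2.52 times (1.66 to 3.89) the neuron-like level, so in the HGF scaffold library its interval includes 1. In untreated cord Trem2 in microglia-like nuclei stood at 94.3 (54.9 to 151) CPM, 7.57 times (3.63 to 15.8) the neuron-like level, and its interval overlapped that of astrocyte-like nuclei at 48.3 (24.9 to 84.3) CPM. Lpl in macrophage-like nuclei was 1.63 times (0.380 to 14.7) the neuron-like level in the HGF scaffold library, on 15 UMIs and with an interval that includes 1, and 5.42 times (2.89 to 10.9) in the scaffold library, on 49 UMIs.

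Of the storage genes, Plin2 was 3.20 times (1.5 to 8.17) and 3.31 times (2.46 to 4.49) the neuron-like level in macrophage-like nuclei of the HGF scaffold and scaffold libraries, and Soat1 3.24 times (1.59 to 7.68) and 3.03 times (2.35 to 3.92). The highest Plin2 level among classes of at least 30 nuclei in the scaffold library was in neutrophil-like nuclei (led by Cxcl2, Cxcl3 and Ccl3), at 546 (446 to 661) CPM. Its interval did not overlap that of the next class, the Mmp9 cluster at 246 (162 to 358) CPM. The HGF scaffold library had 15 neutrophil-like nuclei, too few for a value, and the untreated library had 0.

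Among classes of at least 30 nuclei, Abca1 was highest in microglia-like nuclei of every library, at 1877 (1429 to 2422) CPM in the HGF scaffold library, 1772 (1549.6 to 2017) CPM in the scaffold library and 2162 (1953 to 2388) CPM in untreated cord. Macrophage-like nuclei came next in the implant libraries, at 1645 (1516 to 1782) CPM and 1497 (1414 to 1583) CPM, with intervals that overlapped the microglia-like ones. In untreated cord oligodendrocyte-like nuclei came second, at 1012 (929 to 1099.9) CPM, below the microglia-like interval. Abcg1 in untreated cord stood at 144 (114 to 179.7) CPM in oligodendrocyte-like nuclei, and its next class, microglia-like nuclei at 88.7 (50.7 to 144) CPM, overlapped that interval.

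Apoe and Pla2g7 each had a high level outside the clusters called macrophage-like and microglia-like. The Mmp9 cluster cannot be read as free of macrophages. There 9 macrophage markers summed to 5231 and 3294 CPM in the HGF scaffold and scaffold libraries, beside 2527 and 1671 CPM in macrophage-like nuclei. In the same cluster 11 fibroblast markers summed to 11889 and 9379 CPM. Apoe stood at 13489 (12793 to 14212) CPM and 13877 (13189 to 14593) CPM in the Mmp9 cluster of the HGF scaffold and scaffold libraries. Its next classes were meningeal-like nuclei of the HGF scaffold library, at 4621 (4066 to 5231) CPM, and astrocyte-like nuclei of the scaffold library, at 4564 (4311 to 4827) CPM. In untreated cord Apoe was highest, among classes of at least 30 nuclei, in astrocyte-like nuclei, at 4197 (3946 to 4459) CPM. The 28 nuclei of the Mmp9 cluster there, too few for a level, held 3.81% of the Apoe UMIs and 0.486% of all UMIs. The scaffold over untreated ratio was 1.09-fold (1.0 to 1.18) in astrocyte-like nuclei and 2.25-fold (2.18 to 2.33) over all nuclei. Pla2g7 in astrocyte-like nuclei stood at 836 (729 to 953) CPM in the scaffold library and 716 (615 to 829) CPM in untreated cord, a ratio of 1.17-fold (0.954 to 1.43). In untreated cord that level was 26.4 times (18.5 to 38.8) the neuron-like one. Microglia-like nuclei of untreated cord stood at 72.1 (38.4 to 123) CPM. Among classes of at least 30 nuclei in the implant libraries, Pla2g7 was highest in macrophage-like nuclei and the Mmp9 cluster, at 1049 and 1284 CPM in the HGF scaffold library and 1174 and 885 CPM in the scaffold library.

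Within macrophage-like nuclei, HGF scaffold over scaffold, 1 of the 10 genes was at least 2-fold higher, against 3.04% of the genes measured there, and 0 were lower, against 5.33%. Cd36 stood at 149.8 (113 to 195) CPM in the HGF scaffold library and 54.0 (39.2 to 72.5) CPM in the scaffold library, 2.77-fold (1.83 to 4.22) higher, on 55 and 44 UMIs, and 1.998-fold with every nucleus thinned to 500 UMIs, just under the threshold. The intervals of Plin2 (1.5-fold, 1.16 to 1.94), Trem2 (1.57-fold, 1.05 to 2.33), Soat1 (1.35-fold, 1.06 to 1.70), Apoe (1.26-fold, 1.16 to 1.36) and Msr1 (1.22-fold, 1.06 to 1.40) lay above 1, with ratios under 2-fold. Pla2g7 was at 0.893-fold (0.791 to 1.01), Abca1 at 1.1-fold (0.995 to 1.21), Abcg1 at 0.995-fold (0.703 to 1.39) and Lpl at 0.680-fold (0.354 to 1.23), and all 4 intervals include 1. Cd36 was also higher in endothelial-like nuclei, where it stood at 102 (63.3 to 156) CPM in the HGF scaffold library and 21.7 (13.3 to 33.5) CPM in the scaffold library, a ratio of 4.71-fold (2.43 to 9.16) on 21 and 20 UMIs. In oligodendrocyte-like nuclei Cd36 was at 2.18-fold (0.813 to 5.32) on 8 and 17 UMIs, an interval that includes 1. In the Mmp9 cluster its ratio was 1.58-fold (0.718 to 3.58). The macrophage-like nuclei of the HGF scaffold library had a median of 971 UMIs and those of the scaffold library 1999. Markers of adipocytes, cells in which Cd36 and Lpl are abundant, summed to 46.3 and 17.2 CPM in these nuclei on 17 and 14 UMIs, with 6 and 8 of the 10 at 0, and their part in the Cd36 result was not tested.

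**Figure D4:**
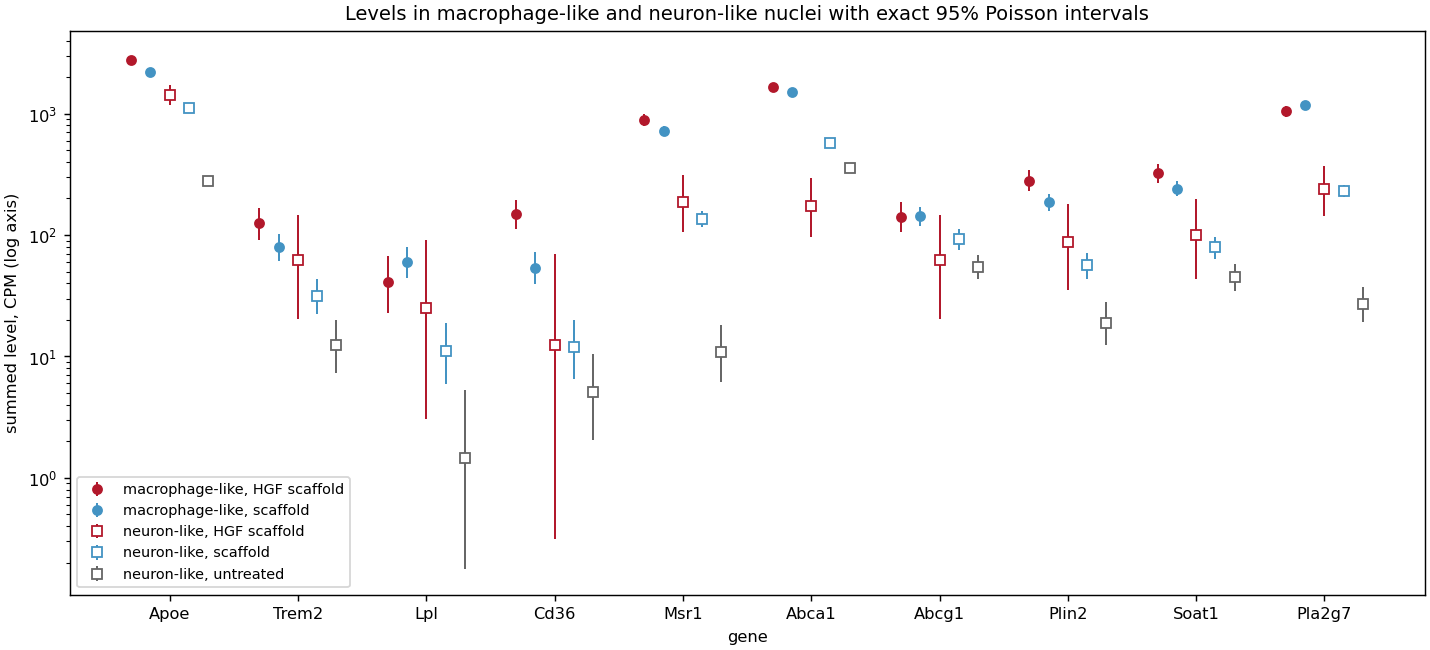
Level of each gene in CPM on a log axis, with exact 95% Poisson intervals, in macrophage-like nuclei (filled circles) of the HGF scaffold and scaffold libraries and in neuron-like nuclei (open squares) of the HGF scaffold, scaffold and untreated libraries. The macrophage-like Cd36 intervals do not overlap, at 149.8 CPM in the HGF scaffold library and 54.0 CPM in the scaffold library, and the Msr1 level of neuron-like nuclei is lowest in untreated cord.

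Shares of nuclei with a UMI were read after each nucleus was thinned to 500 UMIs. Cd36 was then found in 7.32% (4.59 to 11) of macrophage-like nuclei of the HGF scaffold library and 3.66% (1.96 to 6.18) of those of the scaffold library, intervals that overlap. Unthinned shares were 16.0% and 11.3%. Neuron-like nuclei, at median depths of 1750.0 and 4685 UMIs, had Cd36 in 0 of 32 thinned nuclei of the HGF scaffold library, with an upper limit of 10.9%, and in 0.549% (0.0139 to 3.02) of those of the scaffold library, and unthinned in 3.12% and 6.04%. Msr1 was found in 27.2% (22.1 to 32.7) and 26.8% (22.2 to 31.7) of thinned macrophage-like nuclei and in 6.25% (0.766 to 20.8) and 6.04% (3.06 to 10.6) of thinned neuron-like nuclei of the same libraries. Its unthinned shares were 44.9% and 62.5% in macrophage-like and 15.6% and 41.2% in neuron-like nuclei, higher in the deeper scaffold library in both.

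In microglia-like nuclei, which all 3 libraries held, few UMIs limited the reading, and no count with the HGF scaffold library given next stayed above 0 at a minimum of 50 UMIs. Scaffold over untreated, 2 of the 8 genes with enough UMIs were at least 2-fold higher, Msr1 at 2.91-fold (1.41 to 6.35) and Pla2g7 at 4.29-fold (2.25 to 8.75), against 4.71% of genes measured there, and 0 were lower, against 4.85%. Msr1 rested on 25 and 12 UMIs, and its scaffold level was 1.43 times (0.895 to 2.18) the neuron-like level of that library, an interval that includes 1. The same holds for Pla2g7, at 1.34 times (0.938 to 1.88). HGF scaffold over untreated, Msr1 (6.22-fold, 2.62 to 14.9), Abcg1 (2.51-fold, 0.874 to 6.45) and Trem2 (2.03-fold, 0.654 to 5.38) of 6 were higher, against 6.71%, and Soat1 was lower (0.396-fold, 0.0458 to 1.56), against 14.4%. HGF scaffold over scaffold, Msr1 (2.14-fold, 1.0 to 4.34) was higher, against 4.86%, and Soat1 (0.257-fold, 0.0298 to 1.01) lower, against 12.1%. Soat1 had 2 UMIs in the 37 microglia-like nuclei of the HGF scaffold library, and of the HGF scaffold ratios given here only the Msr1 intervals exclude 1, that over scaffold starting at 1.005. The microglia-like Msr1 level of the HGF scaffold library was 2.21 times (0.966 to 4.97) its neuron-like level, an interval that includes 1. Abca1 was at 0.868-fold (0.649 to 1.14) for HGF scaffold over untreated and 0.819-fold (0.693 to 0.967) for scaffold over untreated.

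Taking microglia-like and macrophage-like nuclei as 1 myeloid class, 5 of the 9 genes measured were at least 2-fold higher in HGF scaffold than untreated cord (Apoe, Cd36, Msr1, Plin2 and Pla2g7), against 11.6% of genes, and 4 of 10 in scaffold than untreated cord (Lpl, Cd36, Msr1 and Pla2g7), also against 11.6%. Pla2g7 was at 11.4-fold (7.00 to 19.7) and 12.2-fold (7.60 to 21.1). The class had only 3 Lpl UMIs and 2 Cd36 UMIs in untreated cord. Scaffold over untreated, Lpl was at 3.68-fold (1.19 to 18.4) and Cd36 at 4.69-fold (1.23 to 39.9). HGF scaffold over untreated, Cd36 was at 14.1-fold (3.72 to 119). The class was mostly macrophage-like with an implant and mostly microglia-like without, so these values compare different clusters. The log2 ratio of Cd36 for scaffold over untreated turned negative, at -0.25, with each library clustered alone.

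The RefSeq table used here gave the sequence before the gene start for 7 of the 10 genes. The 250 bases before the start were searched on both strands for AGGTCA (the core of sites for nuclear receptors such as the LXR and PPAR factors that control many lipid genes), CACGTG (the E-box), TGACTCA (AP-1) and GAGGAA (the core of sites for ETS factors such as PU.1). Over the 33469 windows of all genes these letters were found in 14.1%, 5.59%, 4.05% and 23.3%. Windows with a match are shown for 4 genes, from the uptake, storage and hydrolase groups, that were at least 2-fold higher over all nuclei with either implant. They are given 5′ to 3′ on the gene's strand of build GRCr8, with capitals marking matches, where TTCCTC and TGACCT are the ETS and nuclear receptor letters of the opposite strand. Cd36 (chr4:18246332-18246581, + strand) and Trem2 (chr9:20151780-20152029, − strand) are receptors, Plin2 (chr5:106229019-106229268, − strand, 1 of 2 starts) is the droplet coat and Pla2g7 (chr9:24901748-24901997, − strand) the hydrolase.
Cd36: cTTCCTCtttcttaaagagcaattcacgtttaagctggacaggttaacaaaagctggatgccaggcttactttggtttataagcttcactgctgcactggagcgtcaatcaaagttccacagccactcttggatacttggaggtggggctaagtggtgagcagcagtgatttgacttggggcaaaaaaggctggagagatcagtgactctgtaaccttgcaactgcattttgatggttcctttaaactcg
Trem2: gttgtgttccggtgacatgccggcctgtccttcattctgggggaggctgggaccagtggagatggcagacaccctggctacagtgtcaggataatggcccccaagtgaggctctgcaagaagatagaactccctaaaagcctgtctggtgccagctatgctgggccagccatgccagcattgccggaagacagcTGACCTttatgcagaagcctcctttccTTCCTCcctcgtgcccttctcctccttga
Plin2: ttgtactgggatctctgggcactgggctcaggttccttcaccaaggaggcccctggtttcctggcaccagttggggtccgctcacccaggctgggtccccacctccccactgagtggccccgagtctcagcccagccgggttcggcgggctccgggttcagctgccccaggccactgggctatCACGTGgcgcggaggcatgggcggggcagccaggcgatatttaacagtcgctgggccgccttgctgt
Pla2g7: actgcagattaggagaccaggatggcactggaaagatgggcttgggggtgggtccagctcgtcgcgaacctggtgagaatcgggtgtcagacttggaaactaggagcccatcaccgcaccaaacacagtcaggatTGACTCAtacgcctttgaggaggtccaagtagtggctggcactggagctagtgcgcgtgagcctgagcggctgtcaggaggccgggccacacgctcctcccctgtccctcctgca
The Cd36 window holds the ETS letters, Trem2 the nuclear receptor and the ETS letters, Plin2 the E-box and Pla2g7 the AP-1 letters. None of the 4 motifs was in all 4 windows. Abca1, which did not reach 2-fold over all nuclei, also held an E-box, and Soat1 and 1 of 3 Apoe windows the ETS letters. A match describes letters in the sequence, and no binding was measured.

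The 38 sums of at least 30 nuclei (1 per class and library) gave each gene its closest partners by Pearson's r of log2(CPM + 10) among 9727 genes. The sums share libraries, depth and free RNA, so the values are a description. Msr1 was closest to Lilrb4 (r = 0.95) and Fcer1g (0.95), Pla2g7 to Smpdl3a (0.95) and Msr1 (0.91), and Apoe to Tmsb4x (0.98) and Psap (0.97). Plin2 was closest to Ptk2b (0.89) and Vasp (0.89), and Abca1 to Pld1 (0.88) and Prex1 (0.87). Trem2 was closest to Ap2s1 (0.86) and Gpnmb (0.86), Soat1 to Tln1 (0.83) and Pygl (0.83), Cd36 to Bst1 (0.81) and Cxcl16 (0.77), Abcg1 to Abcc5 (0.79) and Lcp2 (0.77), and Lpl to Fabp4 (0.74) and Arg1 (0.73). Among the 10 genes themselves the pairs nearest to each other were Msr1 with Pla2g7 (0.91), Plin2 with Pla2g7 (0.88) and Msr1 with Plin2 (0.87). Apoe and Abca1 were the farthest apart (0.16).

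Beyond the 10, 90 other genes of lipid handling from 8 lists were in the files. Over all nuclei, 26 of 78 measured were at least 2-fold higher and 4 lower in HGF scaffold than untreated cord, beside 9.3% and 11.7% of all genes. Scaffold over untreated, 19 of 81 were higher and 0 lower, beside 7.12% and 3.98%. All 5 genes of TREM2 signalling found in the files were higher in both, among them its partner Tyrobp, at 5.39-fold (4.27 to 6.80) for HGF scaffold over untreated and 4.68-fold (3.88 to 5.68) for scaffold over untreated, and the kinase Syk, at 4.80-fold (4.06 to 5.68) and 4.38-fold (3.83 to 5.02). Such ratios also follow the make-up of the libraries. Over all nuclei the 26 myeloid markers summed to 6975, 5970 and 1989 CPM in the HGF scaffold, scaffold and untreated libraries. In the myeloid class, whose clusters differ between libraries, Tyrobp was at 2.47-fold (1.24 to 5.46) and 2.59-fold (1.36 to 5.52), on 10 UMIs in untreated cord. It was the only one of these 5 genes past 2-fold there on at least 50 UMIs. Trem2 itself was at 1.35-fold (0.786 to 2.42) and 0.834-fold (0.499 to 1.46) in that class, intervals that include 1. Of the uptake receptors and carriers 5 of 14 and 5 of 15 were higher, among them the fatty acid binding protein Fabp4, at 7.53-fold (5.33 to 10.7) and 5.65-fold (4.22 to 7.70), and the oxidized lipoprotein receptor Olr1, at 3.18-fold (2.56 to 3.94) and 3.70-fold (3.16 to 4.33). In the same list Fabp7 was lower in HGF scaffold than untreated cord, at 0.375-fold (0.247 to 0.549) on 29 and 331 UMIs. The apolipoprotein gene Clu was also lower there, at 0.451-fold (0.386 to 0.523). Of the esterification and droplet genes 5 of 11 and 2 of 11 were higher. G0s2, an inhibitor of triglyceride lipase, was at 10.3-fold (6.61 to 16.5) and 29.3-fold (20.2 to 44.0). The LXR receptor gene Nr1h3 was at 3.51-fold (2.36 to 5.18) and 3.28-fold (2.45 to 4.45), and Ptafr, the receptor for platelet-activating factor, at 5.44-fold (4.49 to 6.59) and 4.69-fold (4.01 to 5.50). Within the myeloid class Ptafr was at 2.72-fold (1.78 to 4.30) and 2.28-fold (1.52 to 3.55). Of the sterol synthesis genes 0 of 11 were higher in either comparison, and Dhcr7 was lower in HGF scaffold than untreated cord at 0.383-fold (0.136 to 0.879).

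HGF scaffold over scaffold, 3 of 78 of these genes were higher and 2 lower over all nuclei, beside 2.38% and 5.47% of all genes. Counts so near the background are no result about the lists, and the genes named next are given as values. Pparg, a nuclear receptor under which Cd36 is a known target, was at 2.51-fold (1.78 to 3.50) on 59 UMIs in the HGF scaffold library and 98 in the scaffold library, and Ch25h, which makes 25-hydroxycholesterol, at 2.01-fold (1.22 to 3.23). The Pparg value is over all nuclei, and its part in the Cd36 result was not tested. G0s2 was lower, at 0.352-fold (0.272 to 0.450). Within macrophage-like nuclei 3 of 64 were higher and 3 lower, beside 3.04% and 5.33% of all genes, so these counts too lay near the background. Chosen after their values were seen, the lipase gene Pnpla2 was higher, at 2.22-fold (1.32 to 3.74), and the apolipoprotein gene Clu lower, at 0.286-fold (0.118 to 0.600). Within the myeloid class, the lipase gene Mgll was lower in both implant libraries than in untreated cord, at 0.171-fold (0.0956 to 0.292) for HGF scaffold and 0.167-fold (0.110 to 0.253) for scaffold, and the scavenger receptor gene Colec12 higher, at 4.60-fold (3.24 to 6.72) and 5.17-fold (3.69 to 7.47). These ratios set mostly macrophage-like against mostly microglia-like nuclei. In microglia-like nuclei alone Mgll was at 0.325-fold (0.145 to 0.656) for scaffold over untreated, on 10 and 43 UMIs.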

How the data were processed

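Single-nucleus RNA was measured in 3 libraries, 1 per group, with groups from the treatment label. Per the labels' protocols, nuclei were captured with 10x Genomics 3′ gel beads. Deposited values are whole-number UMI counts for every gene in every nucleus. The submitters' processing notes name Cell Ranger 6.0.1. The genome build and annotation are not given in the sources used here.

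A nucleus was kept if it had 200 genes or more, a mitochondrial share of 5% or less and no doublet call by Scrublet. Scrublet called 15, 1 and 0 nuclei of the HGF scaffold, scaffold and untreated libraries, fewer than expected in the last 2, so the 303 nuclei in which 5 or more of 7 lineages each showed 3 or more markers were left out as an alternative. Median depth was 1047, 1639 and 1407.5 UMIs. The lowest barcodes hold 501, 500 and 500 UMIs.

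All libraries entered 1 clustering, with no integration, in scanpy 1.11.5 (Python 3.11.15, leidenalg 0.10.2, scikit-learn 1.9.0) from 2000 variable genes, 30 principal components, 15 neighbours and Leiden resolution 1. A cluster took the class with the most markers among its 100 leading genes. It stayed unnamed if it had under 3 markers, if classes tied, if another class had more markers in its top 10 genes, or if its depth was over 2 times its libraries' median with markers of a second class. Counts were summed per library and class to CPM. CPM values carry exact Poisson, shares exact Clopper-Pearson and ratios exact conditional intervals, for counting error only. The ratio and its interval were run on simulated Poisson counts with known fold changes. Those counts hold no spread between nuclei or libraries and no free RNA, so the run says nothing on these limits. Bases are from RefSeq tables of build GRCr8. Of 98 other lipid genes listed, 90 were in the files, 2 under an older symbol.

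Levels of all 10 genes in every class with at least 30 nuclei are drawn in the heat maps, and only part is given in words. Schwann-like nuclei and the clusters led by Slc26a7, Chst8 or Tenm2 are not described there, and some 2-fold ratios are left out. In the Slc26a7 cluster, for example, Soat1 was at 0.347-fold (0.122 to 0.805) for HGF scaffold over scaffold, on 6 and 55 UMIs. It was at 3.86-fold (2.21 to 7.10) for scaffold over untreated. Other lipid genes named had a 2-fold ratio with at least 50 UMIs over all nuclei or in the myeloid class, except where stated. Likeness used genes with at least 100 UMIs and named the 2 nearest. The 10 genes, the lists and the tests were chosen with earlier results of these data known. Alternatives changed cell filters, depth, weighting, scaling, UMI minimum and clustering. The values of 1 gene of these lists are not reported here.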

Additional observations from a re-analysis of the deposited data

Results flagged for a closer look

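Lineages differed in the direction of a 2-fold difference for 2 genes. Msr1, HGF scaffold over scaffold, was at 2.14-fold in microglia-like nuclei and 0.440-fold in oligodendrocyte precursor-like nuclei. Soat1, HGF scaffold over untreated, was at 0.396-fold in microglia-like nuclei, and at 3.07-fold in endothelial-like, 2.21-fold in neuron-like, 2.16-fold in oligodendrocyte precursor-like, 2.13-fold in meningeal-like and 2.11-fold in fibroblast-like nuclei. The difference between lineages was not tested, and the low values rest on 6 UMIs for Msr1 and 2 for Soat1 in the HGF scaffold library. Both low intervals include 1, at 0.156 to 1.01 for Msr1 and 0.0458 to 1.56 for Soat1. The Soat1 intervals in neuron-like, oligodendrocyte precursor-like and meningeal-like nuclei also include 1, on 8, 7 and 5 UMIs in the HGF scaffold library. Opposite directions are therefore not shown by these counts. With 1 library per group, no library could be set against others of its group.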

How the results depend on the processing

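Over all nuclei, the 3 counts of genes at least 2-fold higher stayed within 1.5 times under every alternative run. In macrophage-like nuclei HGF scaffold over scaffold, the count of 1 became 0 with nuclei thinned to 500 UMIs, where Cd36 was at 1.998-fold, just under the threshold, and over the 10 alternatives Cd36 ranged from 1.998-fold to 4.90-fold. In the myeloid class scaffold over untreated, the count of 4 became 2 at Leiden resolution 2, 2 with each library clustered alone and 2 when thinned, and the log2 ratio of Cd36 turned to -0.0232 at resolution 2 and -0.25 with each library clustered alone. In microglia-like nuclei HGF scaffold over scaffold, 1 became 0 with lipid genes allowed in clustering, when thinned, with equal weight per nucleus and at 50 UMIs, and 4 with no UMI minimum. HGF scaffold over untreated, 3 became 0 when thinned and at 50 UMIs and 6 with no minimum. Scaffold over untreated, 2 became 6 by highest marker score and 1 at 50 UMIs. Soat1 there, HGF scaffold over untreated, turned to a log2 ratio of 0.52 by highest marker score. The causes were not tested. Of the single-gene log2 ratios, 554 stayed within their counting interval, 77 moved and 3 reversed. Thinning to 500 UMIs gave 29 of the 77. Shares of nuclei were less stable, with 43 moved and 7 the same. Of the ratios at fixed lineage shares 7 moved and 23 stayed the same, and of the counts past 2-fold 14 moved and 76 stayed the same. No replicate could be left out, and no paired analysis was possible because each group had 1 library. In microglia-like nuclei Lpl and Cd36 had under 20 UMIs in every comparison.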
